A study of Mus musculus with 44 samples.

Results

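Transcripts of 6 genes named as markers of cortical excitatory neurons were followed through the nucleus accumbens of mice, out of 55487 genes counted in each of 2 tables. The genes were Slc17a7, Tbr1, Neurod6, Neurod2, Emx1 and Lamp5, and all 6 were found by symbol in both tables. They were chosen by symbol after their levels in the bulk libraries were known, so their bulk values are given as a description without a p-value. The study used viruses to overexpress RXRa, the alpha form of the retinoid X receptor, in the accumbens; this protein is a ligand-regulated transcription factor. The bulk libraries were all of male tissue infused with a herpes simplex virus (HSV), 4 with HSV-GFP and 4 with the RXRa vector. Nuclei sorted as D1 or D2 came from females and males that received a Cre-dependent adeno-associated virus vector, AAV9-CAG-DIO, carrying EGFP alone or with RXRa. EGFP groups had 5 libraries each, except D2 female with 4, and each of the 4 RXRa groups had 4. D1 and D2 are the usual names for striatal neurons that express the dopamine receptors Drd1 and Drd2. The line that supplied Cre, the age of the animals, the time after infusion and any pooling are not given in the sources used here, so p-values measure the spread between these samples, which may be technical. 1 further sorted library, whose labels name different vectors, entered no comparison.

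The neurons that fill the striatum are GABAergic projection neurons and interneurons, and their excitatory input comes from the axons of cells that lie elsewhere, mainly in the cortex, the amygdala, the hippocampus and the thalamus. Slc17a7 encodes VGLUT1, which loads glutamate into the synaptic vesicles of cortical neurons, and its transcript stays mostly in their cell bodies. Emx1 is a homeobox factor of the dorsal telencephalon, from which cortical excitatory neurons arise. Tbr1, Neurod2 and Neurod6 are transcription factors of the same lineage, the first of the T-box family and the others of the basic helix-loop-helix family, which binds E-boxes. Lamp5 encodes a membrane protein of the endosomal system that is used as a marker of cortical neurons, including a class of interneurons.

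The sequences before the gene starts are shown as background, and what part they had in the levels below was not tested. They are taken from RefSeq on GRCm38.p6, where all 6 genes matched. Only bases that lie before the gene in GENCODE M21 as well are printed, which leaves 250 for Slc17a7 (chr7:45163671-45163920, plus strand), 250 for Neurod6 (chr6:55681264-55681513, minus strand), 247 for Neurod2 (chr11:98329649-98329895, minus strand) and 150 for Lamp5 (chr2:136052089-136052238, plus strand). Capitals mark a match to 1 of 3 motifs.
Slc17a7: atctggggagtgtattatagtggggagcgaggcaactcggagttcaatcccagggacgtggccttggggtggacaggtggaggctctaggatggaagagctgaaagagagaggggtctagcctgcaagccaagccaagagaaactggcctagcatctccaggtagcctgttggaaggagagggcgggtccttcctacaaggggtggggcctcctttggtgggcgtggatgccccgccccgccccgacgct
Neurod6: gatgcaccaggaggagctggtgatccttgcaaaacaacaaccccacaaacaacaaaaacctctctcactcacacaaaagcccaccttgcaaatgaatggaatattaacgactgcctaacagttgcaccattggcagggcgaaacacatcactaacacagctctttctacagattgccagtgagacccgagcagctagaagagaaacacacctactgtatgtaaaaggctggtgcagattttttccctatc
Neurod2: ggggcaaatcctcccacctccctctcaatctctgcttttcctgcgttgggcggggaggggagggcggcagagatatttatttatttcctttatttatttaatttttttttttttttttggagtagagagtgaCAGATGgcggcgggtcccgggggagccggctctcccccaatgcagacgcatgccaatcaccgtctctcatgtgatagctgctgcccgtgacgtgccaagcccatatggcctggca
Lamp5: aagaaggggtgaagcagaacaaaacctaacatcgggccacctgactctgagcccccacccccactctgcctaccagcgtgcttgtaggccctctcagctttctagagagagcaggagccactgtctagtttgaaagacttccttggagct
The motifs searched, on both strands, were the E-boxes CAGATG and CAGCTG and the T-box core GGTGTGA. In the 250 bases before each RefSeq start, CAGATG occurred once in Neurod2, with its first base 118 bases before the start, and in none of the other 6 windows of these genes, of which Lamp5 has 2. It was present in 14.4% of all 32851 windows of that length. CAGCTG was in 0 of the 7 windows, against 13% of all, and GGTGTGA in 0 of the 7, against 3.33% of all. The windows also differed in base composition, from 45.2% G and C in Tbr1 to 75.6% in Emx1, where the median of all windows was 52.4%.

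Total counts ranged from 21567565 to 29167142 in the bulk libraries and from 12211655 to 27757463 in the 35 sorted libraries. Levels are given as CPM, counts per 1e6 of the library size after TMM scaling, and were compared only within a table. The vector's RXRa sequence had 0 counts in the 4 bulk controls and 567 to 914 in the 4 bulk RXRa libraries. It had 0 to 17 counts in the 19 sorted controls and 1216 to 13017 in the 16 sorted RXRa libraries. The tissue label was met by the striatal genes, since Ppp1r1b, which encodes the dopamine signalling protein DARPP-32, had 989.9 to 1263 CPM in bulk and Penk, the enkephalin precursor, 887.5 to 1132 CPM. The sort label was met by Drd2, at 49.0 to 106.2 CPM in the 18 D1 libraries and 519.7 to 1779 CPM in the 17 D2 libraries, and by Adora2a, at 13.9 to 25.99 and 33.8 to 125.9 CPM. Drd1 was higher in D1 on average but overlapped, at 30.7 to 83.8 CPM in D1 and 6.50 to 38.6 CPM in D2. Tac1, a gene of D1 neurons, overlapped as well (21.7 to 74.5 and 12.01 to 66.3 CPM), as did Penk, a gene of D2 neurons (23.3 to 212.4 and 184.3 to 1079 CPM).

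Slc17a7 varied more across the bulk libraries than any other of the 18579 genes tested, by the SD of log2(CPM + 1). It had 5.73, 81.7, 579.8 and 68.1 CPM in GFP 1 to 4 and 380.7, 72.65, 447.3 and 55.4 CPM in RXRa 1 to 4. These values lay in 3 ranges without overlap. GFP 3, RXRa 1 and RXRa 3 were at 380.7 CPM or above, GFP 2, GFP 4, RXRa 2 and RXRa 4 were between 55.4 and 81.7 CPM, and GFP 1 stood alone at 5.73 CPM (95% Wilson interval 4.91 to 6.69). The highest library exceeded the lowest 101.2-fold. Each vector group held libraries of the high and of the middle range, so the 2 groups overlapped over most of their span.

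The 3 lineage factors of the cortex and Emx1 took the libraries in almost the same order. Tbr1 had 0.495, 7.60, 69.95 and 6.38 CPM in GFP 1 to 4 and 34.6, 7.91, 43.2 and 5.79 CPM in RXRa 1 to 4. Neurod2 had 0.425, 7.10, 47.1 and 6.53 CPM in the GFP libraries and 31.2, 6.30, 38.5 and 4.38 CPM in the RXRa libraries. GFP 3 was the highest and GFP 1 the lowest library for each of these genes. Neurod6 had 0.212, 1.99, 13.8 and 2.03 CPM with GFP and 9.56, 1.75, 9.31 and 1.46 CPM with RXRa. Emx1, the rarest of the 6, had 0.142, 1.48, 7.70 and 1.05 CPM with GFP and 4.33, 1.24, 5.58 and 1.01 CPM with RXRa. The highest library exceeded the lowest 141.2-fold for Tbr1, 111-fold for Neurod2, 65.2-fold for Neurod6 and 54.4-fold for Emx1. In GFP 1 these levels rest on 162 counts of Slc17a7, 14 of Tbr1, 12 of Neurod2, 6 of Neurod6 and 4 of Emx1, so the folds of the rarer genes are imprecise. The Wilson interval of Emx1 in that library runs from 0.0550 to 0.364 CPM, and such intervals cover counting error only. By the SD of log2(CPM + 1), Tbr1 ranked 2, Neurod2 ranked 3, Neurod6 ranked 11 and Emx1 ranked 39 of the 18579 genes.

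**Figure D1:**
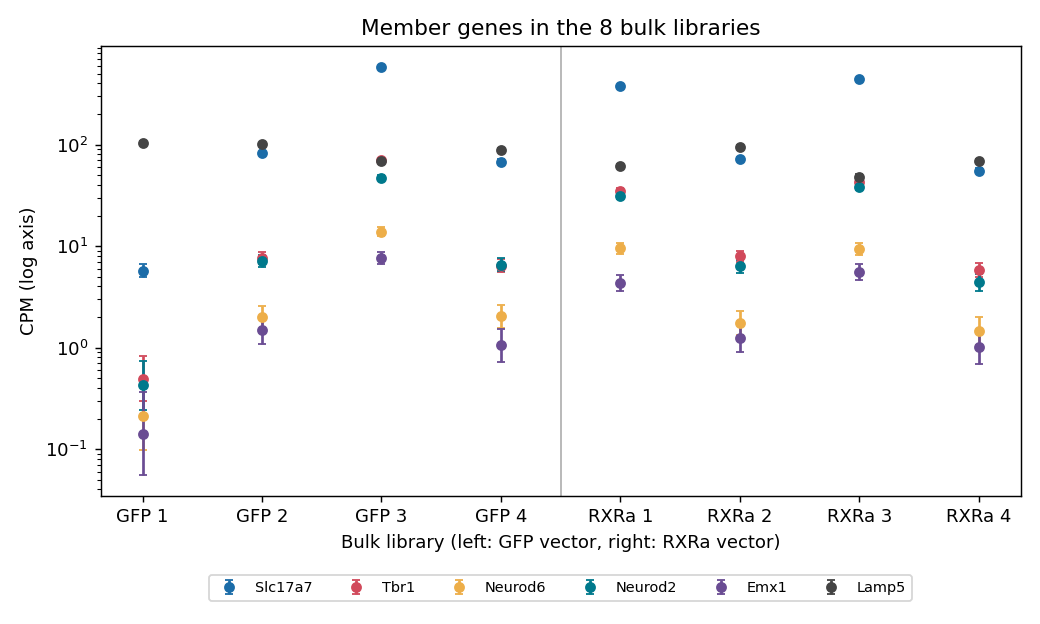
CPM of the 6 genes (log axis) in each bulk library, with GFP libraries on the left and RXRa libraries on the right; bars are 95% Wilson intervals, which cover counting error only. Slc17a7, Tbr1, Neurod6, Neurod2 and Emx1 are highest in GFP 3 and lowest in GFP 1, while Lamp5 is highest in GFP 1 and stays between 47.9 and 103.3 CPM.

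Lamp5 went against the name given to the 6 genes. It had 103.3, 100.8, 69.0 and 88.2 CPM in GFP 1 to 4 and 61.4, 95.4, 47.9 and 68.95 CPM in RXRa 1 to 4. GFP 1, where the other 5 genes were lowest, had the most Lamp5, and RXRa 3 had the least. Its highest library exceeded its lowest 2.16-fold, and its SD ranked 1451 of 18579. Per kb of annotated exon, the scale on which levels of different genes can be set side by side, Lamp5 had the highest bulk median of the 6 at 26.8 CPM per kb, followed by Slc17a7 at 14.3, Neurod2 at 2.17, Tbr1 at 1.41, Neurod6 at 0.934 and Emx1 at 0.623. The label of a cortical marker that varies with the other 5 therefore does not hold for Lamp5 in these libraries, and it is described apart from them below.

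Relative to Slc17a7, the other 4 genes of the moving set stayed within narrow limits in libraries that differed 101.2-fold. Tbr1 had 8.64, 9.30, 12.1 and 9.37 counts per 100 counts of Slc17a7 in GFP 1 to 4 and 9.09, 10.9, 9.67 and 10.4 in RXRa 1 to 4, a range of 1.40-fold. Neurod2 ranged from 7.41 to 9.59 counts per 100, or 1.29-fold. Neurod6 ranged from 2.08 to 3.70, or 1.78-fold, and Emx1 from 1.14 to 2.47, or 2.17-fold. The upper ends of the last 2 ranges lie in GFP 1, and without that library the ranges were 1.43-fold and 1.60-fold. Counting error does not cover all of the Tbr1 range, since the 95% interval of its ratio in GFP 3 was 11.5 to 12.65 and that in RXRa 1 was 8.48 to 9.74. Lamp5 had between 10.7 and 1803 counts per 100 of Slc17a7, a range of 168.5-fold.

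**Figure D2:**
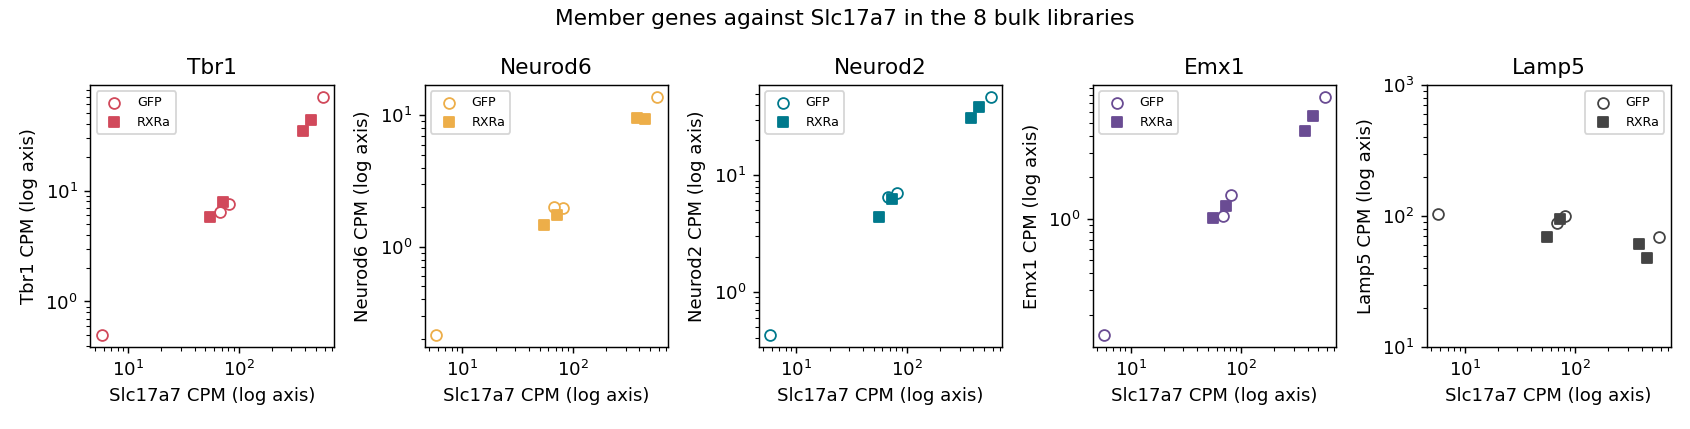
CPM of Tbr1, Neurod6, Neurod2, Emx1 and Lamp5 against CPM of Slc17a7 in the 8 bulk libraries, both axes logarithmic; open circles are GFP libraries and filled squares RXRa libraries. The first 4 genes rise with Slc17a7 over its 101.2-fold range. Lamp5 is at 103.3 CPM in the library of least Slc17a7 and at 69.0, 61.4 and 47.9 CPM in the 3 of most. It does not fall evenly, since RXRa 4, with 55.4 CPM of Slc17a7, has 68.95 CPM of Lamp5.

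Between the vector groups, the 5 moving genes differed by less than their spread. Slc17a7 had 183.8 ± 266.1 CPM (SD, n = 4) with GFP and 239 ± 204 CPM (SD, n = 4) with RXRa, and the edgeR log2 fold change was 0.38 (SE 1.11). Tbr1 had 21.1 ± 32.7 and 22.9 ± 18.9 CPM, Neurod2 15.3 ± 21.4 and 20.1 ± 17.3, Neurod6 4.52 ± 6.27 and 5.52 ± 4.52, and Emx1 2.59 ± 3.45 and 3.04 ± 2.27 CPM (SD, n = 4 each, GFP then RXRa). Their log2 fold changes lay between 0.11 and 0.39 with standard errors of 0.91 to 1.10. Leaving out GFP 3 alone moved the log2 fold change of Slc17a7 to 2.20 and that of Tbr1 to 2.24, while leaving out RXRa 3 turned them to -0.12 and -0.39. Lamp5 had 90.4 ± 15.7 CPM (SD, n = 4) with GFP and 68.4 ± 20.0 CPM (SD, n = 4) with RXRa, a log2 fold change of -0.40 (SE 0.20), and its groups overlapped. Over all genes, edgeR's quasi-likelihood test called 3.7% at an adjusted p under 0.05, a share given as background only, since the 6 genes were chosen on these libraries and their own calls carry no weight. Their median log2 fold change was 0.25, against -0.02 for all genes. The 687 calls among all genes depended on single libraries of the high and middle ranges. They numbered 402 without GFP 3, 292 without RXRa 3 and 1016 without RXRa 1. In the middle range they numbered 9 without GFP 4, 175 without RXRa 4, 243 without GFP 2 and 333 without RXRa 2. Without GFP 1, which stood alone at the low end, 602 were called.

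Other genes were ranked by Pearson's r with the mean scaled log2 level of the 6 members, over the 8 libraries and the 16003 genes with a mean of at least 1 CPM. The libraries fall into separate ranges and share their depth, so r reflects mainly which libraries are high, and no p is given. The 5 genes most like the members were Gls2 (0.983), a mitochondrial glutaminase, Prdm8 (0.978), a transcriptional repressor of the PRDM family, Clec2l (0.977), Cck (0.976), the cholecystokinin precursor, and 4430402I18Rik (0.9751). Prdm8 had 0.177, 1.74, 10.4 and 1.46 CPM in GFP 1 to 4 and 7.81, 2.13, 8.02 and 1.42 CPM in RXRa 1 to 4. Cck had 6.33, 20.8, 98.7 and 16.6 CPM in the GFP libraries and 72.25, 17.3, 84.5 and 11.3 CPM in the RXRa libraries. Both thus placed the libraries in the same 3 ranges as Slc17a7, and their folds between extremes were 59.0 and 15.6. The other 3 covered only 1.60-fold to 3.02-fold. At the opposite end were Rsph1 (-0.984), a gene of motile cilia, Plxnc1 (-0.984), a semaphorin receptor, Prelp (-0.981), an extracellular matrix protein, Acvr2a (-0.979), an activin receptor, and Gm17396 (-0.976). These covered 1.27-fold to 2.37-fold. With Lamp5 left out of the score, Prdm8, 4430402I18Rik, Gls2 and Cck stayed among the 5 highest, with Sel1l3 in the place of Clec2l. Acvr2a, Rsph1 and Prelp stayed among the 5 lowest, with Ext2 and Dhdh in the places of Plxnc1 and Gm17396.

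A wider list of 26 genes of cortical glutamatergic layers and subplate was examined next, of which 25 had a mean high enough to be ranked. Of these, 11 (44%) had an r above 0.8 with the score of the 5 moving genes, against 819 of 16003 genes (5.12%). Slc30a3, the synaptic vesicle zinc transporter ZnT3, ranged 51.1-fold, from 0.318 CPM in GFP 1 to 16.3 CPM in RXRa 3. Cplx3, a complexin of deep cortical layers, had 0.672, 4.63, 42.2 and 5.33 CPM in GFP 1 to 4 and 8.001, 4.16, 18.1 and 3.20 CPM in RXRa 1 to 4. RXRa 1 was thus nearer to the libraries of the middle range for Cplx3 than for Slc17a7. Ccn2, a gene of subplate neurons, ranged 21.1-fold, Nr4a2 26.6-fold and Nrn1 22.8-fold. Other genes of the list hardly moved, among them Cux2 (1.29-fold), Syt6 (1.33-fold), Tle4 (1.35-fold) and Otof (1.58-fold). Gnb4, Rprm, Etv1 and Tshz2 ran the other way, with an r of -0.749, -0.747, -0.736 and -0.456. Each of them was highest in GFP 1, and no r of the list fell below -0.8. The list thus held genes at 101.4 CPM or more in every library, such as Syt6 and Tle4, beside genes under 1 CPM in GFP 1. In the comparison of RXRa with GFP, 0 of its 25 tested genes were called by edgeR, against 3.7% of all genes, with a median log2 fold change of -0.11 against -0.02 for all genes. The count was 2 lower with DESeq2, 1 lower without GFP 1, 1 higher and 2 lower with the score of the 6 members as a covariate, and 5 lower with Lamp5 left out of that score. The highest were Slc30a3 at 0.79 (SE 1.03), Rasgrf2 at 0.30 (SE 0.29) and Otof at 0.27 (SE 0.14), and Cplx3 at -0.67 (SE 1.00) and Ccn2 at -0.60 (SE 0.81) were among the 3 lowest.

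**Figure D3:**
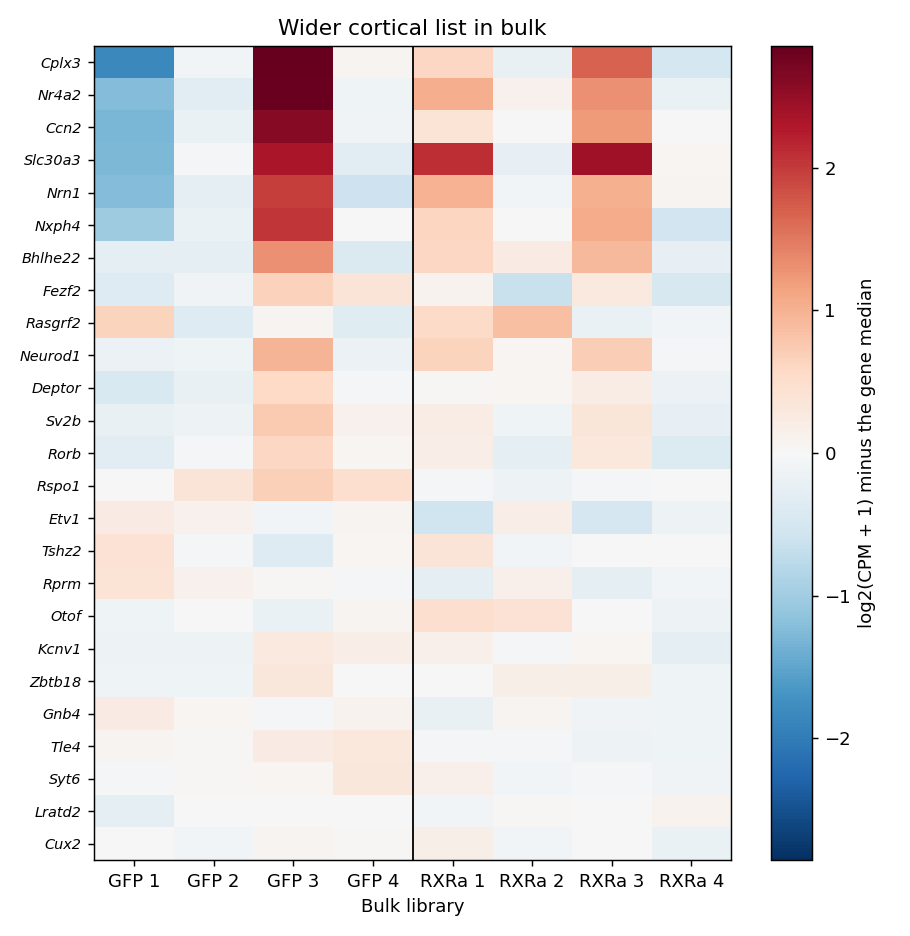
Genes of the wider cortical list, 25 of 26 (rows, ordered by their range) in the 8 bulk libraries (columns, GFP left of the line and RXRa right of it); colour is log2(CPM + 1) minus the gene's median over the libraries. The upper rows, with Cplx3, Slc30a3 and Nr4a2, are red in GFP 3 and RXRa 3 and blue in GFP 1, and the lower rows are nearly white throughout.

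Marker lists of other cells were set beside these values. The 18 striatal projection neuron genes summed to 8199 to 9544 CPM with GFP and 7124 to 8349 CPM with RXRa, and 1 of them, Rasd2, had an r above 0.8 with the 5 moving genes. Of 10 interneuron genes, 4 did, against 5.12% of all genes: Pvalb, at 2.41 CPM in GFP 1 and 15.5 CPM in GFP 3, Vip, at 1.59 and 8.70 CPM, Ndnf, at 6.83 and 13.95 CPM, and Adarb2, at 11.25 and 18.5 CPM. The r of Gad1, Lhx6, Nos1, Npy and Sst lay between 0.3848 and 0.7097. Chat ran the other way, with an r of -0.6773, at 24.55 CPM in GFP 1 and 17.1 CPM in GFP 3. Of the 5 genes listed for subcortical glutamatergic neurons, 3 could be ranked and 1, Slc17a6, had an r above 0.8. This list summed to 21.8 to 28.3 CPM with GFP and 29.4 to 39.8 CPM with RXRa, at 27.9 CPM in GFP 1 and 28.3 CPM in GFP 3. Slc17a6 did not follow that sum, and like the 5 moving genes it was lowest in GFP 1 and highest in GFP 3. It had 0.283, 1.77, 10.9 and 1.99 CPM in GFP 1 to 4 and 4.53, 5.37, 5.12 and 4.01 CPM in RXRa 1 to 4. The r fell below -0.8 in 2 of 4 ranked genes of choroid plexus and ependyma, 2 of 3 genes of oligodendrocyte precursors, 2 of 5 microglial genes and 1 of 5 astrocyte genes, against 3.6% of all genes. What part the outline of the dissected tissue had in these values was not tested, and in bulk tissue fewer cells of a type cannot be told apart from less RNA per cell.

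In the sorted nuclei the 5 genes that moved in bulk covered far narrower ranges. These libraries were made from ribosome-depleted total RNA of nuclei, in which counts can also fall along introns. A background density was read from 1576 genes of at least 5 kb with no count in any bulk library, and was 0.380 to 0.565 CPM per kb of gene body. Multiplied by a gene's body length, it gives the level the gene would have at that density alone. Neurod2 had 0.412 to 2.46 CPM over the 35 libraries, a median of 0.629 times that level. Emx1 had 6.56 to 12.8 CPM, a median of 1.24 times the level, and Tbr1 5.23 to 9.23 CPM, a median of 1.26 times. For the silent genes themselves the ratio ran from 0.352 to 1.56 between the 5th and 95th percentile. These 3 medians thus lay among those of genes without a count in bulk. Slc17a7 had 4.99 to 27.9 CPM, a median of 1.49 times the level, and its median was above that span in D1 libraries, at 1.86 times, and within it in D2 libraries, at 1.25 times. Neurod6, at 1.68 to 4.65 CPM and 1.74 times, and Lamp5, at 15.3 to 30.8 CPM and 2.00 times, were above it. The bodies of Neurod6 (3.44 kb) and Neurod2 (4.23 kb) are shorter than the 5 kb required of the silent genes. Whether the density and its span hold for genes that short was not tested. Protein-coding genes with a mean of at least 10 CPM in bulk had a median ratio of 1.57. Their ratios ran from 0.8983 to 3.296 between the same percentiles, so the spans of silent and expressed genes overlapped. The medians of Emx1 and Tbr1, and of Slc17a7 over all libraries and in D2, lay in both spans. For these the ratio cannot tell background from expression. Neurod2 lay below the span of the expressed genes, and Neurod6, Lamp5 and Slc17a7 in D1 lay within it.

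Slc17a7 had the widest spread of the 6 between single sorted libraries. In D1 female EGFP 1 to 5 it had 10.3, 23.3, 11.1, 9.73 and 11.2 CPM, and in D1 male EGFP 1 to 5 it had 14.1, 27.9, 8.58, 10.8 and 12.6 CPM. The library numbered 2 stood above its group in each case, at 3.92 and 4.75 times the level at the background density. The same 2 libraries had the most Neurod2 of the 35, at 2.46 and 2.37 CPM, and the most Drd1 (75.2 and 77.25 CPM), Penk (69.8 and 128.6 CPM) and Adora2a (18.7 and 21.7 CPM) of their groups. Drd2 was the lowest of its group in the female library, at 49.0 CPM, and the highest in the male library, at 71.2 CPM. What these differences had to do with the Slc17a7 level was not tested. In the D1 RXRa libraries Slc17a7 lay between 7.65 and 15.5 CPM. In D2 it had 7.76, 6.32, 9.66 and 7.68 CPM in female EGFP 1, 3, 4 and 5, and 6.68, 4.99, 8.53, 5.07 and 7.82 CPM in male EGFP 1 to 5. The D2 RXRa libraries had 5.24, 6.39, 7.69 and 9.37 CPM in females and 9.16, 11.5, 6.86 and 6.71 CPM in males. Ordered by mean, the groups were D1 male EGFP at 14.8 ± 7.60 CPM (SD, n = 5), D1 female EGFP at 13.1 ± 5.70 (SD, n = 5), D1 male RXRa at 11.01 ± 3.39 (SD, n = 4), D1 female RXRa at 10.4 ± 1.96 (SD, n = 4), D2 male RXRa at 8.55 ± 2.24 (SD, n = 4), D2 female EGFP at 7.86 ± 1.37 (SD, n = 4), D2 female RXRa at 7.17 ± 1.77 (SD, n = 4) and D2 male EGFP at 6.62 ± 1.59 CPM (SD, n = 5). Every pair of neighbours in this order differed by less than the larger of their SDs.

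**Figure D4:**
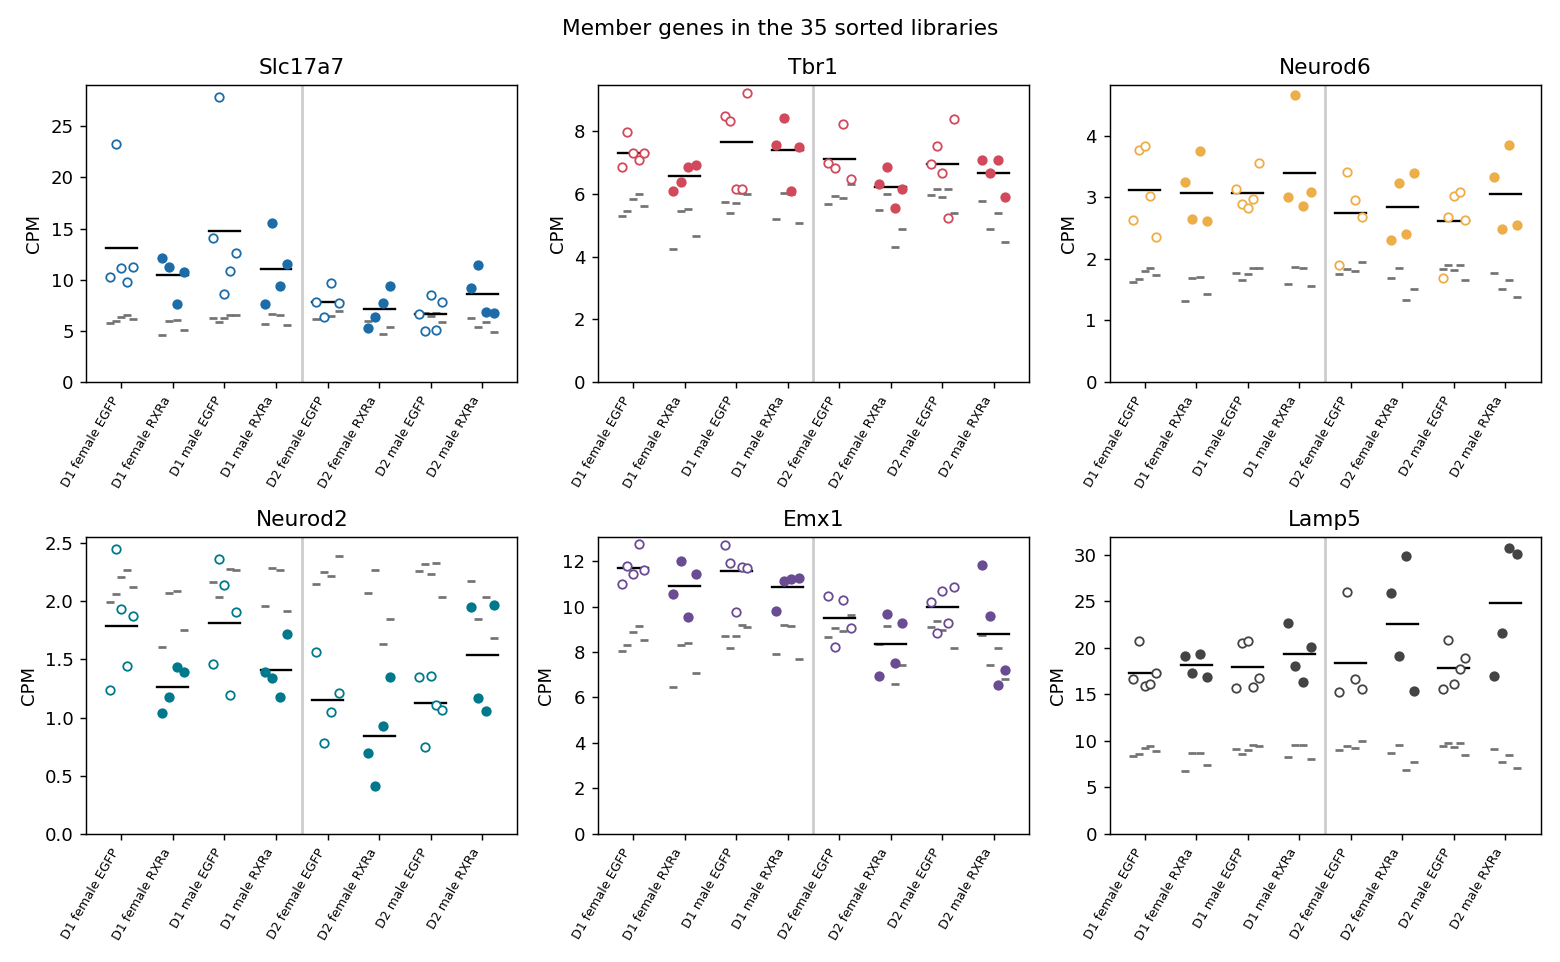
CPM of the 6 genes (linear axis from 0) in the 8 sorted groups, 1 circle per library, open for EGFP and filled for RXRa; black lines are group means and grey dashes the level at the silent-gene density. The libraries D1 female EGFP 2 (23.3 CPM) and D1 male EGFP 2 (27.9 CPM) stand out for Slc17a7, Neurod2 lies mostly below its dashes, and Lamp5 spreads up to 30.8 CPM in D2 with RXRa.

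The first sorted comparison asks how RXRa changed these genes in D1 nuclei. None of the 6 was called by edgeR's quasi-likelihood test, where 0% of the 43902 genes tested were called, 3518 genes had an unadjusted p under 0.05, and DESeq2 also called 0 genes, with 3054 at an unadjusted p under 0.05. The log2 fold changes were -0.36 (SE 0.19) for Slc17a7 and -0.41 (SE 0.16) for Neurod2, with adjusted p-values of 0.629 and 0.584. Slc17a7 depended on the 2 EGFP libraries that stand apart, and was -0.04 without them. Neurod2 had a lowest, median and highest level of 1.20, 1.89 and 2.46 CPM in the 10 EGFP libraries and 1.04, 1.37 and 1.72 CPM in the 8 RXRa libraries, so the groups overlapped. The log2 fold changes of Tbr1, Emx1, Neurod6 and Lamp5 lay between -0.10 and 0.09.

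In D2 nuclei, Lamp5 was the only one of the 6 called with RXRa. It had a lowest, median and highest level of 15.3, 16.7 and 26.0 CPM in the 9 EGFP libraries and 15.35, 23.7 and 30.8 CPM in the 8 RXRa libraries. Female RXRa 2 and 4 and male RXRa 3 and 5 were at 25.9, 29.8, 30.8 and 30.1 CPM, and the other 4 RXRa libraries lay within the range of the controls. The log2 fold change was 0.38 (SE 0.12) with an adjusted p of 0.0277 from edgeR's quasi-likelihood test. In this comparison 22.1% of all genes were called, 14.9% higher and 7.14% lower, so 1 of 6 is close to the share of all genes. With library totals in place of TMM, which shifted the median log2 fold change over all genes from -0.04 to -0.20, the split of the calls went from 6548 higher of 9683 to 2057 higher of 11391, and Lamp5 was at 0.20 (adjusted p 0.12). The call also ended with the silent-gene density as a covariate (0.20, adjusted p 0.915), as did all 9683 calls. It ended without any 1 of 8 libraries, at an adjusted p of 0.0633, 0.0505 and 0.0649 without female EGFP 1, 4 and 5, 0.0548 and 0.122 without female RXRa 2 and 4, 0.0526 without male EGFP 1, and 0.0781 and 0.089 without male RXRa 3 and 5. Beside Lamp5, 13 of the 18 striatal projection neuron genes were higher, and their sum was 6308, 9673, 9041 and 8606 CPM in the 4 libraries of most Lamp5 and 3842 to 7508 CPM in the other RXRa libraries. Among the 8 RXRa libraries, Emx1 was lowest in the same 4, at 6.93, 7.53, 6.56 and 7.22 CPM. Their part in the result was not tested.

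The other 5 genes were not called in D2. Emx1 had a lowest, median and highest level of 8.24, 10.2 and 10.9 CPM with EGFP and 6.56, 8.40 and 11.8 CPM with RXRa, a log2 fold change of -0.17 (SE 0.09, adjusted p 0.159). Without male RXRa 1, the library of most Emx1, it was -0.26 with an adjusted p of 0.0154. Tbr1 was at -0.13 (SE 0.09, adjusted p 0.312), and with library totals only at -0.28 (adjusted p 0.0492). Slc17a7 was at 0.13 (SE 0.21), Neurod6 at 0.16 (SE 0.15) and Neurod2 at 0.02 (SE 0.21), and each of these 3 turned negative with library totals only. The difference between the RXRa effects of D2 and D1 was called for none of the 6 genes, with 0% of all genes called, 3609 at an unadjusted p under 0.05, and 0 called by DESeq2, with 3324 at an unadjusted p under 0.05. For Slc17a7 this difference was 0.49 (SE 0.28) and for Lamp5 0.30 (SE 0.17), with an adjusted p of 0.602 for each.

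D2 nuclei had less Slc17a7 than D1 nuclei under EGFP. The lowest, median and highest levels were 8.58, 11.2 and 27.9 CPM in the 10 D1 libraries and 4.99, 7.68 and 9.66 CPM in the 9 D2 libraries, so the groups overlapped between 8.58 and 9.66 CPM. The log2 fold change was -0.93 (SE 0.19), with an adjusted p of 0.0259 from edgeR's quasi-likelihood test. Here 0.121% of all genes were called, 0.0478% higher and 0.0729% lower in D2. Without D1 female EGFP 2 and D1 male EGFP 2, the libraries of most Slc17a7, it was -0.61 with an adjusted p of 0.105. The call ended without any 1 of 7 libraries, at an adjusted p of 0.0686 and 0.0538 without those 2 in turn, 0.0604, 0.0997 and 0.0733 without D2 female EGFP 1, 3 and 5, and 0.0779 and 0.0675 without D2 male EGFP 2 and 4. It also ended with the silent-gene density as a covariate, at -0.86 with an adjusted p of 0.054. Neurod2 (-0.61, SE 0.17, adjusted p 0.224), Emx1 (-0.26, SE 0.08, adjusted p 0.271), Neurod6 (-0.23, SE 0.13) and Tbr1 (-0.09, SE 0.08) were not called. Lamp5 was at 0.04 (SE 0.12).

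Under RXRa, Emx1 was lower in D2 than in D1. Its lowest, median and highest levels were 9.55, 11.2 and 12.01 CPM in the 8 D1 libraries and 6.56, 8.40 and 11.8 CPM in the 8 D2 libraries, which overlapped. The log2 fold change was -0.33 (SE 0.09) with an adjusted p of 0.0321 from edgeR's quasi-likelihood test, in a comparison where 8.36% of all genes were called, 6.85% higher and 1.51% lower. With library totals only, which changed the split of all calls from 3006 higher of 3671 to 795 higher of 1114, Emx1 was at -0.40 with an adjusted p of 0.0596. The call ended without any 1 of 10 of the 16 libraries. The adjusted p was 0.0672, 0.0564 and 0.0586 without D1 female RXRa 2, 4 and 5, 0.0722, 0.0848 and 0.0517 without D1 male RXRa 2, 3 and 5, 0.078 and 0.12 without D2 female RXRa 2 and 4, and 0.106 and 0.104 without D2 male RXRa 3 and 5. Slc17a7 was at -0.43 (SE 0.21, adjusted p 0.171) and Lamp5 at 0.33 (SE 0.13, adjusted p 0.0816), and neither was called. Lamp5 was called by DESeq2 (0.36, adjusted p 0.0424), and by edgeR without D2 male RXRa 1 (0.41, adjusted p 0.0142) and without D2 female RXRa 5 (0.38, adjusted p 0.0292), and without D2 female RXRa 3 its adjusted p rounded to the threshold itself (0.37, adjusted p 0.05). Tbr1, Neurod6 and Neurod2 lay between -0.18 and -0.11.

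**Figure D5:**
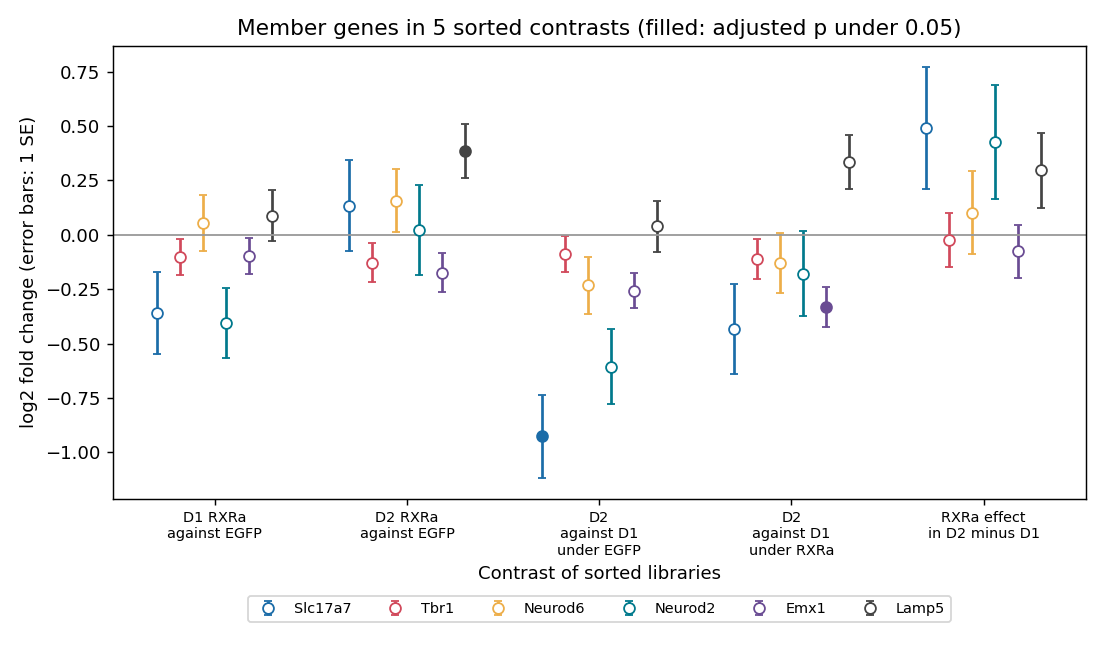
Log2 fold changes of the 6 genes in 5 comparisons of the sorted libraries, with bars of 1 SE; filled points have an adjusted p under 0.05 in edgeR's quasi-likelihood test over all genes. The 3 filled points are Lamp5 at 0.38 (D2, RXRa against EGFP), Slc17a7 at -0.93 (D2 against D1 under EGFP) and Emx1 at -0.33 (D2 against D1 under RXRa).

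The wider cortical list went in mixed directions in the sorted nuclei. In D2 with RXRa, 6 of 26 genes were higher and 5 lower, where 14.9% of all genes were higher and 7.14% lower, and the list's median log2 fold change was -0.05, against -0.04 for all genes. With library totals only 2 were higher and 7 lower, without female RXRa 4 the counts were 0 and 0, and without male RXRa 5 they were 0 and 1. The highest were Kcnv1, a modifying potassium channel subunit, at 0.60 (SE 0.17), Zbtb18, a zinc finger repressor, at 0.49 (SE 0.17) and Tle4, a corepressor, at 0.41 (SE 0.11). The lowest were Bhlhe22, a basic helix-loop-helix factor, at -0.46 (SE 0.14), Nxph4 at -0.22 (SE 0.13), which was not called, and Rorb, a nuclear receptor of layer 4 neurons, at -0.21 (SE 0.07). Kcnv1, Zbtb18 and Tle4 were among the genes that hardly moved across bulk, and 0 genes of the list were called with the silent-gene density as a covariate. Under RXRa, Zbtb18 was higher in D2 than in D1 at 0.78 (SE 0.18), and Nxph4 at -0.44 (SE 0.13) and Nr4a2 at -0.27 (SE 0.08) were lower. In that comparison 0 of the 26 were called on leaving out any 1 of D1 female RXRa 4, D1 male RXRa 2 or 3, D2 female RXRa 2 or 4, and D2 male RXRa 3 or 5. In the other sorted comparisons 0 of the 26 were called. By r with the mean scaled level of the 6 members over the 35 sorted libraries and 32514 genes, the most alike were Tedc2 (0.724), 1700001L19Rik (0.706), Cck (0.704), Ccn2 (0.699) and St8sia5 (0.681). The least alike were Ankk1 (-0.662), Gm4894 (-0.642), Ttc12 (-0.640), Drd2 (-0.633) and Hddc2 (-0.629). Cck was thus in the first 5 of each table, and the sorted r values also carry the difference between D1 and D2 libraries. Lamp5 itself had an r of -0.108 with this sorted score, so the ranking does not describe likeness to Lamp5. No sorted score without Lamp5 was made.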

How the data were processed

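Gene counts were analysed for 8 bulk and 36 sorted libraries of mouse nucleus accumbens. The authors deposited raw counts, whole numbers for each gene and library that were not normalized, as the file headers and values show. The submitters' processing notes name FastQC, Trimmomatic, HISAT2, Picard, featureCounts, Subread and the build GRCm38, with no versions and no role for each. The use of strand and of intron reads is not given in the sources used here, so overlapping and antisense genes can share reads. Per the labels' protocols, bulk RNA was poly(A)-selected and sorted RNA was ribosome-depleted. Symbols and positions come from GENCODE M21, which holds 55394 of the 55487 identifiers.

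Levels are CPM of the effective library size. Contrasts were fitted with edgeR 4.0.16 in R 4.3.3 (quasi-likelihood, filterByExpr by group, TMM), with Benjamini-Hochberg adjustment over all genes and a threshold of 0.05. Bulk was fitted as 2 groups and the 35 assigned sorted libraries as 8, with the sexes weighted equally. An SE is the absolute log2 fold change divided by the root of F. DESeq2 1.42.0 was an alternative, as were other scalings and filters, a replicate block, covariates and leaving out each library. The fits were tested on simulated data. Chi-square over its degrees of freedom was 1.79 to 63.6 for the 72 pairs of libraries of a group, so none was counted as a duplicate. Vector entries were left out of the fits.

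The members, marker lists and tests were chosen with earlier results of these data known. The genes named are the 6 members, for each contrast the 3 highest and 3 lowest of the wider list where any was called or in bulk, the 5 most and least alike by r, and striatal markers. 1 gene that this rule names is not reported here. Genes singled out beyond these, such as Syt6 or Pvalb, were chosen after their values were seen.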

Additional observations from a re-analysis of the deposited data

Results flagged for a closer look

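In each group of 4 or 5 libraries, a library was singled out where its gap to the nearest other was an unusually large share of the group's range. Of 60 sets of values, 9 were singled out, where chance does so in about 1 of 20 independent sets. The sets are not independent, since 4 of the 9 are the library GFP 3 in genes that vary together and were chosen on these bulk values, so the chance rate does not apply to those 4. In bulk, GFP 3 stood above the other GFP libraries for Slc17a7 (579.8 CPM, others 5.73 to 81.7), Tbr1 (69.95 CPM, others 0.495 to 7.60), Neurod6 (13.8 CPM, others 0.212 to 2.03) and Neurod2 (47.1 CPM, others 0.425 to 7.10). In D1 with EGFP, Slc17a7 was far above its group in female 2 (23.3 CPM, others 9.73 to 11.2) and male 2 (27.9 CPM, others 8.58 to 14.1). In D1 male RXRa, library 2 was high for Neurod6 (4.65 CPM, others 2.85 to 3.09) and library 1 low for Emx1 (9.80 CPM, others 11.15 to 11.3). Lamp5 was high in D2 female EGFP 3 (26.0 CPM, others 15.3 to 16.7).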

How the results depend on the processing

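Of 222 values of the 6 genes in the sorted contrasts under alternatives other than leaving out a library, 204 kept their direction and their side of the threshold, 8 lost a call, 2 gained one and 8 changed sign, all 8 without a call. The sign changes with library totals only were Neurod6 in D1 (-0.023) and, in D2 with RXRa, Slc17a7 (-0.02), Neurod6 (-0.0025) and Neurod2 (-0.14). With the silent-gene density as a covariate they were Lamp5 in D1 (-0.0063) and, in D2, Slc17a7 (-0.0698) and Neurod2 (-0.15).

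The count of genes called in bulk was 1619 with DESeq2, 2522 with the score of the 6 members as a covariate, 2793 with Lamp5 left out of that score, 1115 without the 3 libraries of most Slc17a7, and 9 (without GFP 4) to 1016 (without RXRa 1) on leaving out 1 library. The score without Lamp5, the 3 libraries and the pair of D1 libraries were chosen after seeing the data. In D2 with RXRa it was 0 with the silent-gene density as a covariate, and 0 (without female RXRa 4) to 14766 (without male RXRa 1). For D2 against D1 it was 90 under EGFP with DESeq2, and 36 to 61 on leaving out 1 library. Under RXRa it was 1114 with library totals, 5722 with DESeq2, and 118 (without D2 female RXRa 4) to 9886 (without D2 male RXRa 1). The counts of 0 in D1 and for the difference between D2 and D1 stayed at 0.

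Replicate numbers did not pair the samples: the deviations of same-numbered libraries correlated above 0.1 in 2 of 4 bulk pairs and 11 of 31 sorted pairs. With the replicate block, the calls were 0 in bulk, 6032 in D2 with RXRa and 136 for D2 against D1 under RXRa, the adjusted p of Lamp5 in D2 was 0.0787, of Slc17a7 between D2 and D1 0.0653 and of Emx1 0.0847, and Neurod2 in D2 was at -0.0546. The causes were not tested.

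On leaving out 1 library, log2 fold changes that crossed 0 ranged from -0.0483 to 0.0974 for Neurod6 in D1, -0.18 to 0.13 for Neurod2 in D2, -0.0647 to 0.079 for Lamp5 between D2 and D1 under EGFP, and -0.0678 to 0.0146 for Tbr1 in the difference of effects. In bulk they ranged from -0.12 to 2.20 for Slc17a7, -0.39 to 2.24 for Tbr1, -0.14 to 1.96 for Neurod6, -0.13 to 2.10 for Neurod2 and -0.24 to 1.75 for Emx1. Depth limits the rarest genes, with 4 counts of Emx1 in bulk GFP 1 and 6 to 66 of Neurod2 in a sorted library.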

Other observations

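The sorted library whose title names RXRa and whose vector label names EGFP had 8.29 CPM of Slc17a7, 5.69 of Tbr1, 2.24 of Neurod6, 1.09 of Neurod2, 10.1 of Emx1 and 18.0 of Lamp5. It had 2941 counts of the vector's RXRa sequence. Each of the 6 levels lay within the range of the other 35 sorted libraries.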
